A study of Mus musculus with 21 samples.

Results

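The genes of mitosis were followed in early-transformed murine B cell precursors: 41 genes of mitotic entry, the spindle, the kinetochore, anaphase and cytokinesis, chosen by their gene symbols, out of 24421 genes in the count table. All 41 were found in the table, and all 41 were among the 12786 genes with enough counts to be tested. The members were picked by name and function, not by their values, although earlier results of these data were known when the list was drawn up. RNA-seq of poly(A) RNA had been done on bone marrow-derived B cell precursors of 53BP1-/- C57BL/6 mice, so that cells of every group, controls included, lacked 53BP1, a DNA repair protein. The cells grew in 10 ng/ml of IL-7, the cytokine that sustains B cell precursors, and were transduced with a MIGR1 retroviral vector that was empty (EV), or carried BCR-ABL1p210, the fusion kinase of chronic myeloid and some B cell leukemias, or C-MYC, a transcription factor that drives growth and proliferation. Each of the 3 conditions had 2 libraries, numbered replicate 1 and replicate 2, each from the same number of cells taken at day 7 to 9 after transduction. The study's methods describe duplicate experiments but do not tie a library to an animal, so p-values measure the spread between these libraries, and the cultures were mixed populations, not clones.

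At the entry into mitosis, cyclin B binds the kinase CDK1, and the CDC25 phosphatases switch the complex on. Aurora and Polo-like kinases, kinesins and kinetochore proteins then build the spindle and attach each chromosome to it, while the spindle checkpoint holds back the anaphase-promoting complex until every kinetochore is attached. CDC20 then activates that complex, which destroys cyclin B and securin and so releases separase to split the sister chromatids. Most of these genes are transcribed late in the cell cycle, by MYB-MuvB and FOXM1, and their mRNA is therefore often read as a measure of how many cells are dividing. In a bulk library, fewer cells of a type and less RNA per cell cannot be told apart.

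The libraries held 20687092 to 24095955 counts, and the 10 most abundant genes took 4.07 to 5.28% of them. Myc was counted 3869 and 3277 times in EV, 7239 and 8381 times with BCR-ABL1 and 37920 and 27450 times with C-MYC, highest in the libraries labelled C-MYC. Trp53bp1, the gene deleted in every group, still had 342 to 723 counts, and a count over a whole gene does not show which part of it was deleted. Values of 1 gene across libraries are given below as CPM, counts scaled to library size with edgeR's TMM factors. The summed CPM of 11 B cell precursor markers was 8681 to 9751 in EV, 7978 to 8928 with BCR-ABL1 and 5772 to 7363 with C-MYC, and none of the 11 was at 0 in any library. Markers of other cells were higher in EV. The summed CPM of 11 myeloid markers was 1143 to 1274 in EV against 142 to 158.5 with BCR-ABL1 and 193.3 to 328.5 with C-MYC. That of 8 T and NK cell markers was 98.2 to 134.2, 7.87 to 9.43 and 3.999 to 5.97, and that of 7 stromal markers 120.7 to 182.7, 7.58 to 8.31 and 2.07 to 2.78, in the same order. All 11 myeloid and all 8 T and NK markers were called lower in each oncogene group against EV. Of the 11 B cell precursor markers, BCR-ABL1 had 2 called lower (Cd79b and Il7r), whereas C-MYC had 9. Of the 5 stromal markers tested, 4 were called lower with BCR-ABL1 and all 5 with C-MYC. The share of all tested genes called lower was 12.0% for BCR-ABL1 and 24.5% for C-MYC. The hemoglobin genes Hba-a1, Hba-a2, Hbb-bs and Hbb-bt were at 0 in all 6 libraries, and the summed CPM of the 8 erythroid markers was 0.920 to 1.75. The part of these other cells in the results on the mitosis genes was not tested.

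**Figure D1:**
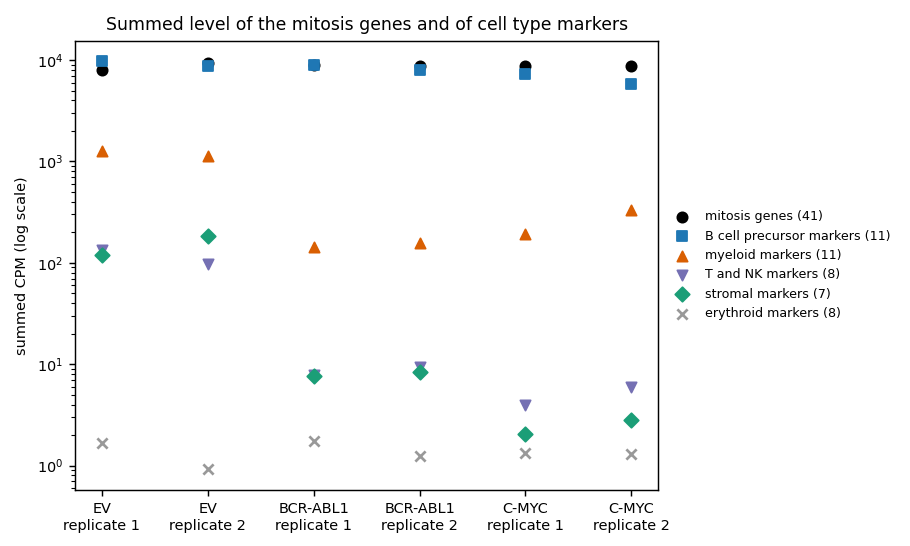
Summed CPM (log scale) of the 41 mitosis genes and of 5 lists of cell type markers in each of the 6 libraries, 1 point per list and library. The mitosis genes sum to 8046 to 9284 CPM in all 6 libraries, whereas the myeloid, T and NK and stromal markers are highest in both EV libraries.

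The summed level of the 41 genes differed little between the conditions. They took 0.832 and 0.979% of the counts in EV, 0.887 and 0.874% with BCR-ABL1 and 0.825 and 0.856% with C-MYC. The EV libraries thus spanned the 4 others but for the lower C-MYC library, which was just under EV replicate 1. Top2a (25482 to 32923 counts) and Mki67 (23508 to 36931 counts) weighed most in this sum. The mean log2 CPM, in which each member weighs alike, was 7.06 and 7.25 in EV, 7.21 and 7.21 with BCR-ABL1 and 7.19 and 7.17 with C-MYC. For contrast, 30 genes of DNA replication and S phase took 0.609 and 0.588% in EV, 0.680 and 0.683% with BCR-ABL1 and 0.734 and 0.719% with C-MYC, with no overlap between any of the conditions.

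Levels between genes were compared in FPKM, which is scaled to transcript length. Top2a, the topoisomerase that disentangles chromosomes, was the highest member in every condition at 318.9 FPKM on average over the 6 libraries. Mki67, which encodes the proliferation antigen Ki-67 that coats mitotic chromosomes, followed at 266 FPKM and Nusap1, a microtubule-bundling spindle protein, at 223 FPKM. Pttg1, which encodes securin, the inhibitor of separase, was the lowest in every condition at 4.36 FPKM. The median member stood at percentile 84.27 of the tested genes, and 25 of the 41 members were in the top 25%. Neighbours in this order were often not separated: of 40 neighbouring pairs, the libraries did not overlap in 9 pairs in EV, 24 with BCR-ABL1 and 16 with C-MYC. For 5 members the FPKM was more than 2 times off what the counts per kilobase of annotated exon give, relative to the median gene. Nusap1 and Mad2l1 were above it and Birc5, Nuf2 and Spc25 below it, so the place of these genes in the order is uncertain. The genes were spread over the genome, with 8 members on chromosome 2 and 5 each on chromosomes 9 and 11 (GRCm38).

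The promoters of the mitosis genes shared letters that the choice of members did not use. RefSeq promoter windows on GRCm38.p6, from 250 bases before the transcription start to 50 after it, were at hand for 33 members in 35 windows. The letters TTTGAA or TTCGAA, the core of the cell cycle genes homology region to which MuvB binds, stood on either strand in 28 of these 35 windows (80.0%), against 13.9% of 12357 windows of tested genes and 19.2% of all 32851 windows. CCAAT, the letters of the box bound by NF-Y, stood on either strand in 27 (77.1%), against 37.6% and 37.4%. Both kinds stood in 25 (71.4%), against 5.62% and 7.52%, and 2 or more CCAAT in 51.4%, against 13.8% and 11.7%. CCAAT can share no more than an end base with the 6-letter motifs. The median first base of CCAAT lay at -63 from the start and that of TTTGAA or TTCGAA at -16. Positions were pooled over windows, so matches in the overlapping windows of Ect2 and Prc1 entered once for each window. A match is a description of letters, not proof of a bound site.

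**Figure D2:**
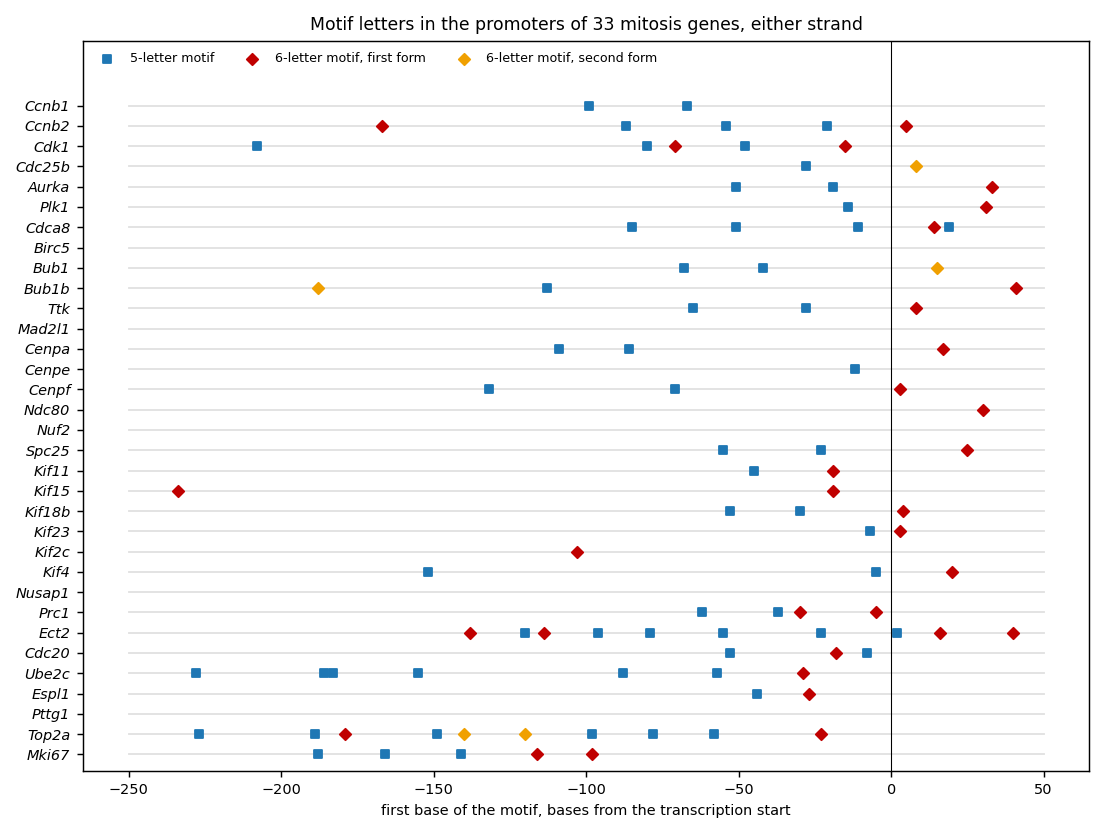
Position of motif letters on either strand in the promoter windows of 33 mitosis genes, in bases from the transcription start; squares are the 5-letter motif CCAAT and diamonds the 6-letter motifs TTTGAA (first form) and TTCGAA (second form). CCAAT matches gather upstream (median -63) of the 6-letter matches (median -16), and the windows of Birc5, Mad2l1, Nuf2, Nusap1 and Pttg1 have no match. Matches in the overlapping windows of Ect2 and Prc1 appear once for each window. The Pttg1 window lies inside the gene as annotated in GENCODE M21 and does not reach the bases before that annotated start.

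The windows of 6 of the 8 members called in any comparison below are shown, and they differ in these letters. Foxm1 and Kif20a, the other called members, had no RefSeq window at hand, so their promoters were not searched. Capitals mark these letters on either strand, so that CCAAT on the other strand reads as ATTGG. Ccnb2, Cdc20 and Cdk1 hold both kinds, Ccnb1 holds CCAAT alone, and Nusap1 and Pttg1 hold neither. The Pttg1 window lies wholly inside the gene as annotated in GENCODE M21 (chr11:43420250-43426251, minus strand). Bases before that annotated start were therefore not searched for Pttg1.
Ccnb1 (chr13:100786437-100786736, minus strand): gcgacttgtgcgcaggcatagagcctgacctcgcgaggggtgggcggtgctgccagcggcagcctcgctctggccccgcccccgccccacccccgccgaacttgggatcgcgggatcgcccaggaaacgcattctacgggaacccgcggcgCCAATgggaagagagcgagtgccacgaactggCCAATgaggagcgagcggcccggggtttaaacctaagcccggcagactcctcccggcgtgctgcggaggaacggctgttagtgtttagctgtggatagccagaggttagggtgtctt
Ccnb2 (chr9:70421505-70421804, minus strand): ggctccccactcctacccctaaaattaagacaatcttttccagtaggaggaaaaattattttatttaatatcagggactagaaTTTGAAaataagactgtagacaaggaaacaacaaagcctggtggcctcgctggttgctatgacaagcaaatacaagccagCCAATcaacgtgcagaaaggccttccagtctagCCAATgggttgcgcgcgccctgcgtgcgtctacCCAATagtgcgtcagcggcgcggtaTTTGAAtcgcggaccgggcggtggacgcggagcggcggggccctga
Cdk1 (chr10:69352863-69353162, minus strand): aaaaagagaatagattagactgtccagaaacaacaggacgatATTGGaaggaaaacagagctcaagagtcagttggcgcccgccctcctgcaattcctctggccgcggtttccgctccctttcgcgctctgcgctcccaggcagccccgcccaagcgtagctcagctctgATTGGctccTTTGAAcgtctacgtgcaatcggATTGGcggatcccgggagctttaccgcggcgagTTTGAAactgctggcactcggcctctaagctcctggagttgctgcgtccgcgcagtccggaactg
Cdc20 (chr4:118437294-118437593, minus strand): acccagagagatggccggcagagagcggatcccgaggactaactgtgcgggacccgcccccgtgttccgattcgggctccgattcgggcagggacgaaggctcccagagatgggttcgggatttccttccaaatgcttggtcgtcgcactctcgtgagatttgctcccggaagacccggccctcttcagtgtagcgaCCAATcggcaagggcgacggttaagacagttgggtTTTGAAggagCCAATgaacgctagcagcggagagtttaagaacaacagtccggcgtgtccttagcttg
Nusap1 (chr2:119618048-119618347, plus strand): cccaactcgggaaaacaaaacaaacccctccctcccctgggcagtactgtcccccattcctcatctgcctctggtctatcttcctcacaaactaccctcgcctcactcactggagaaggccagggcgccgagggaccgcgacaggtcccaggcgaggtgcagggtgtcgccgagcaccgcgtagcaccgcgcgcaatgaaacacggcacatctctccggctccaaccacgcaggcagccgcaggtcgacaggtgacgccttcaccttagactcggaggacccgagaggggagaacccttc
Pttg1 (chr11:43425932-43426231, minus strand): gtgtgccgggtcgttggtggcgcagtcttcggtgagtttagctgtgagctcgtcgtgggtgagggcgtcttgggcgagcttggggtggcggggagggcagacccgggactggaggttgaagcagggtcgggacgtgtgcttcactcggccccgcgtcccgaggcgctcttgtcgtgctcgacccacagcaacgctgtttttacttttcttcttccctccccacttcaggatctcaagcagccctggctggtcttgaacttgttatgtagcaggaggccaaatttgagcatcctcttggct

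The mitosis genes were first compared between BCR-ABL1 and EV. None of the 41 was called in BCR-ABL1 against EV (edgeR's quasi-likelihood test, p below 0.05 after Benjamini-Hochberg adjustment), where 17.0% of all tested genes were called, 5.08% higher and 12.0% lower. At an unadjusted p below 0.05 there were 3 members, against 31.2% of all genes, and DESeq2 called 2, Ccnb1 and Cdk1, both higher, against 18.6% of all genes. The median log2 fold change of the members was 0.067, against 0.001 for all tested genes. The 95% interval of the fold change stayed within 2-fold for all 41 members and within 1.5-fold for 36 of them, against 66.4% and 37.2% of all genes. Intervals of the members were also narrower, with a median SE of 0.134 against 0.182 for all genes.

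Ccnb1, cyclin B1, had the smallest adjusted p of the 41. Its level was 164.9 and 189.7 CPM in EV and 218 and 231 CPM in BCR-ABL1, a log2 fold change of 0.34 (SE 0.11, adjusted p = 0.0693). Cdk1, its partner kinase, had 163 and 154 CPM in EV against 190.3 and 198 CPM in BCR-ABL1, a log2 fold change of 0.29 (SE 0.10, adjusted p = 0.0833). For both genes the 2 groups did not overlap. With the replicate number as a block, which called 25.2% of all genes, both were called higher (adjusted p = 0.0291 for Ccnb1 and 0.0476 for Cdk1). Pttg1 had 12.8 and 10.2 CPM in EV against 8.25 and 8.23 CPM in BCR-ABL1, a log2 fold change of -0.48 (SE 0.20, adjusted p = 0.156). The remaining 38 members lay between -0.39 for Cenpe, a kinesin of the kinetochore, and 0.27 for Bub1, a checkpoint kinase. The libraries of the groups did not overlap for 18 members higher and 1 lower in BCR-ABL1, against 29.2% and 29.7% of all genes.

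The count of members called changed with the EV libraries. EV replicate 2 was higher than EV replicate 1 in 31 of the 41 members, with a median log2 difference of 0.20, against 0.018 over all genes, of which 52% were higher. The difference was above 0.5 for Cdc25b, Bub1b, Ttk, Cenpe, Cenpf and Tpx2, 6 of 41 members, against 11.2% of all genes. Beyond 0.5 in either direction there were the same 6 members, against 21.5% of all genes. Cenpf, a kinetochore protein, had 136 and 225 CPM in the EV libraries, and Tpx2, which activates Aurora A on the spindle, had 178 and 273 CPM. The same median was 0.009 between the BCR-ABL1 libraries and -0.0001 between the C-MYC libraries. Without EV replicate 1, Cenpe, Cenpf and Tpx2 were called lower in BCR-ABL1 (log2 fold changes -0.67, -0.60 and -0.37), with 20.6% of all genes called, and the members' median was -0.03. Without EV replicate 2, Ccnb1 and Kif15, a kinesin that stabilises the spindle, were called higher (0.45 and 0.43), with 20.9% of all genes called.

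**Figure D3:**
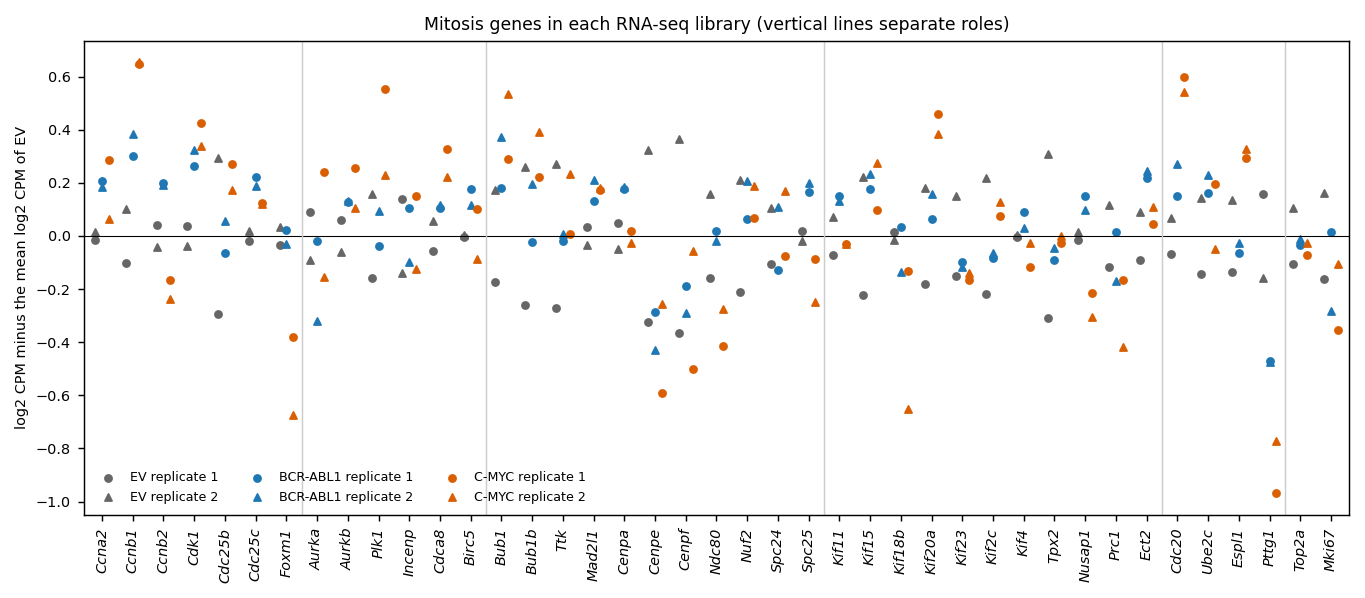
Log2 CPM of each of the 41 mitosis genes in each library, minus the mean log2 CPM of EV; circles are replicate 1, triangles replicate 2, and the vertical lines separate entry genes, kinases and passengers, checkpoint and kinetochore, spindle and cytokinesis, anaphase and exit, and Top2a with Mki67. The EV pair is wide apart for Cenpe, Cenpf and Tpx2. Both C-MYC points are above both EV points for 12 members and below them for 9, against 31.5% and 39.1% of all genes. Among these are the called members Ccnb1, Cdk1, Cdc20 and Kif20a above and Foxm1 and Pttg1 below.

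In C-MYC against EV a few mitosis genes differed, in opposite directions, and the median of the list was near 0. Of the 41 members, 4 rose (Ccnb1, Cdc20, Cdk1 and Kif20a) and 2 fell (Foxm1 and Pttg1) against EV, where 43.1% of all tested genes were called, 18.6% higher and 24.5% lower. The median log2 fold change was 0.054 for the members and -0.076 for all genes. The 95% interval stayed within 2-fold for 40 members and within 1.5-fold for 25, against 52.2% and 21.9% of all genes, with a median SE of 0.134 for the members and 0.183 for all genes. The libraries of the groups did not overlap for 12 members higher and 9 lower, against 31.5% and 39.1% of all genes. With the replicate block, which called 51.9% of all genes, 8 members were called higher and 5 lower. This comparison and the one of BCR-ABL1 share both EV libraries.

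Among the genes of mitotic entry, Ccnb1 rose most. Its level was 164.9 and 189.7 CPM in EV and 277 and 278 CPM in C-MYC, 1.57 times EV (log2 fold change 0.65, SE 0.11, adjusted p = 0.00255). Both C-MYC libraries were above both BCR-ABL1 libraries, which in turn were above both EV libraries. Ccnb1 has 4 processed pseudogenes that match its transcript at 95.1 to 99.1% identity over 60.4 to 93.7% of its length and that have no row of their own in the count table, so its counts are uncertain as far as the handling of reads with several matches is unknown. Cdk1 rose from 163 and 154 CPM to 213 and 200.4 CPM (log2 fold change 0.38, SE 0.10, adjusted p = 0.0163). Ccnb2, cyclin B2, did not pass the test, with 208 and 196 CPM in EV and 180.04 and 171 CPM in C-MYC (log2 fold change -0.20, SE 0.10, adjusted p = 0.127), and was called lower only with library size scaling (adjusted p = 0.0249) and in the 3 limma fits to FPKM (adjusted p = 0.0179 to 0.0214). Ccna2, cyclin A2, had 362 and 369.6 CPM in EV against 446 and 382 CPM in C-MYC (log2 fold change 0.18, adjusted p = 0.202).

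The change of the B cyclins relative to each other did not hinge on scaling, since the ratio of their counts in a library is free of it. The ratio of Ccnb1 to Ccnb2 counts was 0.794 and 0.966 in EV, 0.940 and 1.00 with BCR-ABL1 and 1.54 and 1.63 with C-MYC. Both C-MYC libraries stood clear of the 4 others, among which EV and BCR-ABL1 overlapped. This ratio was chosen after its values were seen and was not tested.

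Foxm1, the transcription factor that drives many genes of this list, fell. It had 168 and 176 CPM in EV, 175 and 169 CPM with BCR-ABL1 and 132 and 108 CPM with C-MYC, a log2 fold change of -0.52 in C-MYC against EV (SE 0.12, adjusted p = 0.0113). The C-MYC libraries did not overlap with those of the other conditions. A stretch of 466 bases on chromosome 3 matches its transcript at 98.1% identity, 10.0% of its length. Of the CDC25 phosphatases, Cdc25b had 179.8 and 269.6 CPM in EV and 266 and 248 CPM in C-MYC (adjusted p = 0.414), and Cdc25c, at 24.2 and 24.8 CPM in EV and 26.7 CPM in both C-MYC libraries, had an adjusted p of 0.477.

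In C-MYC against EV the main edgeR fit called none of the 6 mitotic kinases and members of the chromosomal passenger complex. This complex corrects faulty kinetochore attachments. All 6 log2 fold changes were above 0 with TMM scaling, but those of Aurka, Incenp and Birc5 were below 0 with library size scaling (-0.07, -0.11 and -0.11) and in the limma fits to FPKM. The highest was that of Plk1, Polo-like kinase, at 126 and 157 CPM in EV and 207 and 165 CPM in C-MYC (0.39, SE 0.15, adjusted p = 0.0713). Plk1 was called higher with DESeq2 (adjusted p = 0.0327), with DESeq2 size factors in edgeR (adjusted p = 0.0493) and with no filter on low counts (adjusted p = 0.0356). Cdca8, borealin of the passenger complex, had 135 and 146 CPM in EV and 176 and 164 CPM in C-MYC (0.28, SE 0.10, adjusted p = 0.0609). It was called higher with the replicate block (adjusted p = 0.0414), with DESeq2 (adjusted p = 0.0258) and with DESeq2 size factors in edgeR (adjusted p = 0.0359). Aurkb, the kinase of that complex, was at 0.18, Aurka, the spindle pole kinase, at 0.05, and Incenp and Birc5, the scaffold and survivin, at 0.01 each.

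Of the 11 checkpoint and kinetochore members none was called in the main fit either, with log2 fold changes from -0.45 for Cenpe to 0.41 for Bub1. Bub1 had 80.3 and 102 CPM in EV and 111 and 131 CPM in C-MYC (SE 0.15, adjusted p = 0.0664) and was called with the replicate block (adjusted p = 0.00845), as was its relative Bub1b, BUBR1 (0.31 in that fit, adjusted p = 0.043). Bub1 was also called higher with DESeq2 (adjusted p = 0.0278), with DESeq2 size factors in edgeR (adjusted p = 0.0454) and with no filter on low counts (adjusted p = 0.0354). Ndc80, the kinetochore's microtubule grip, had 65.4 and 81.4 CPM in EV and 54.8 and 60.3 CPM in C-MYC (-0.35, SE 0.14, adjusted p = 0.0761, and 0.0389 with the block). It was also called lower with library size scaling (adjusted p = 0.0348) and in the filtered limma fits to FPKM (adjusted p = 0.0488 and 0.0441). Its 3 partners in the same complex were at 0.11 for Nuf2, 0.05 for Spc24 and -0.17 for Spc25. The checkpoint genes Mad2l1 and Ttk were at 0.18 and 0.10, the centromeric histone Cenpa at -0.01 and Cenpf at -0.31, and none of these passed the test.

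Among the 11 kinesins and genes of the spindle and cytokinesis, Kif20a rose. This kinesin of the central spindle, which acts in cytokinesis, had 101 and 129.996 CPM in EV and 158 and 149.7 CPM in C-MYC (log2 fold change 0.41, SE 0.14, adjusted p = 0.0425). The call was lost in 11 of 16 alternative settings. Nusap1 had 217 and 222 CPM in EV and 189 and 178 CPM in C-MYC (-0.26, SE 0.10, adjusted p = 0.0604), and Kif18b, a kinesin that shortens astral microtubules, had 118 and 115 CPM in EV and 106 and 74.1 CPM in C-MYC (-0.37, SE 0.17, adjusted p = 0.117). Both were called lower with the block (adjusted p = 0.0364 and 0.0353). With library size scaling both were called lower too (adjusted p = 0.0131 and 0.0387), as was Prc1 (adjusted p = 0.038). The limma fits to FPKM called Nusap1 lower (adjusted p = 0.0116 to 0.0214), and the filtered ones called Kif18b lower (adjusted p = 0.0491 and 0.0438). The other 8 ran from -0.29 for Prc1, which bundles the central spindle, to 0.17 for Kif15. The motor Kif11, which pushes the spindle poles apart, was at -0.03, the centralspindlin motor Kif23 at -0.16, the chromokinesin Kif4 at -0.07, the depolymerase Kif2c at 0.09, Tpx2 at -0.05 and the exchange factor of cytokinesis Ect2 at 0.07.

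Of the 4 genes of anaphase and mitotic exit 1 rose and 1 fell. Cdc20 rose from 174 and 191 CPM in EV to 277 and 266 CPM in C-MYC, 1.48 times EV (log2 fold change 0.57, SE 0.10, adjusted p = 0.00386), with 203 and 220.3 CPM in BCR-ABL1 between them. Pttg1 fell from 12.8 and 10.2 CPM to 5.84 and 6.69 CPM, 0.545 times EV (log2 fold change -0.87, SE 0.21, adjusted p = 0.0116), with the BCR-ABL1 libraries between them. Espl1, separase, the enzyme that securin inhibits, had 105 and 127 CPM in EV and 142 and 145 CPM in C-MYC (0.30, SE 0.12, adjusted p = 0.0741, and 0.0352 with the block). It was also called higher with DESeq2 (adjusted p = 0.0363) and with DESeq2 size factors in edgeR (adjusted p = 0.0456). Ube2c, the ubiquitin-conjugating enzyme of the anaphase-promoting complex, had 184 and 225 CPM in EV and 233 and 197 CPM in C-MYC (0.07, adjusted p = 0.697). Top2a and Mki67 were at -0.05 and -0.23 and did not pass the test. The ratio of Cdc20 to Foxm1 counts, also chosen after its values were seen, was 1.04 and 1.09 in EV, 1.16 and 1.31 with BCR-ABL1 and 2.09 and 2.46 with C-MYC.

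The calls in C-MYC against EV differed in how well they held. Ccnb1 and Cdc20 were called in all 16 alternative settings. Foxm1 lost its call without C-MYC replicate 2 (adjusted p = 0.0772) and Pttg1 without C-MYC replicate 1 (adjusted p = 0.0811), in each case only there, and Cdk1 was called in 13 of 16. Without EV replicate 2, 12 members were called higher and 2 lower, with 46.6% of all genes called, and without EV replicate 1, 3 were called higher and 7 lower, with 42.7% of all genes called. The median of the members was 0.14 in the former and -0.06 in the latter.

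**Figure D4:**
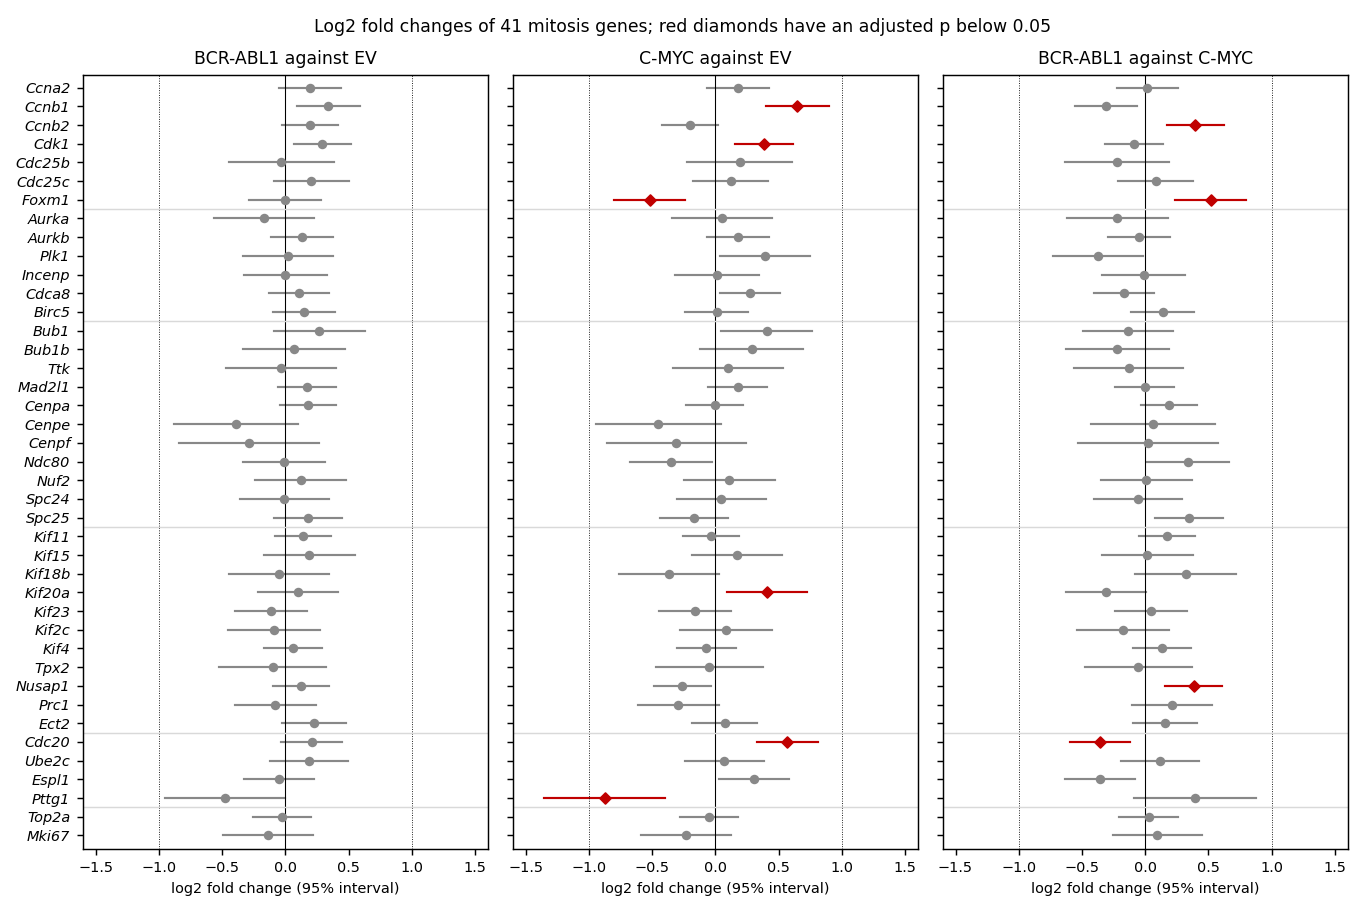
Log2 fold change of each of the 41 mitosis genes with its 95% interval (edgeR) in the 3 comparisons, first group minus second; red diamonds have an adjusted p below 0.05, dotted lines mark a 2-fold difference. There are 0, 6 and 4 red diamonds from left to right.

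The oncogenes were also compared with each other. Of the markers, 7 of 11 for B cell precursors were called higher in BCR-ABL1 than in C-MYC, 2 of 11 myeloid ones lower, 3 of 5 tested stromal ones higher and none of 8 T and NK ones, and their part in this comparison was not tested. Of the 41 members, 3 were higher in BCR-ABL1 than in C-MYC (Foxm1, Ccnb2 and Nusap1) and 1 was lower (Cdc20), where 23.4% of all genes were called, 11.9% higher and 11.5% lower. Foxm1 differed by 0.52 on the log2 scale (SE 0.12, adjusted p = 0.0211), Ccnb2 by 0.40 (SE 0.10, adjusted p = 0.0231) and Nusap1 by 0.38 (SE 0.10, adjusted p = 0.0257), and Cdc20 was at -0.36 (SE 0.10, adjusted p = 0.0412). Ccnb2 had 232 and 231 CPM in BCR-ABL1 and Nusap1 had 243 and 235 CPM, above both EV and both C-MYC libraries in each case. Ccnb1 was at -0.31 (SE 0.11, adjusted p = 0.0733) and Espl1 at -0.36 (SE 0.12, adjusted p = 0.0684); both were called lower, and Spc25 higher, with the replicate block, which called 33.5% of all genes. The median of the members was 0.017, against 0 for all genes, and the libraries did not overlap for 13 members higher and 11 lower, against 35.4% and 34.5% of all genes. The interval stayed within 2-fold for all 41, against 59.4% of all genes, with a median SE of 0.134 for the members and 0.183 for all genes. Left with 1 library of BCR-ABL1 or of C-MYC, none of the members was called except Foxm1 without C-MYC replicate 1, and without either EV library 5 were called higher and 5 lower, with 34.3% and 34.6% of all genes called.

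A further 101 genes of mitosis, in 5 lists that do not overlap with the members, were tested in the same fit. In BCR-ABL1 against EV, 3 rose and none fell (2.97% called, against 17.0% of all genes), and the median log2 fold change was 0.12. The 3, named after their values were seen, were Esco2, the cohesin acetyltransferase (0.66, SE 0.14), and the kinetochore genes Zwint (0.57, SE 0.10) and Cenpk (0.55, SE 0.14). In C-MYC against EV, 13 rose and 4 fell (16.8% called, against 43.1% of all genes, of which 18.6% were higher and 24.5% lower), with a median of 0.08, against -0.08 for all genes. Of the kinetochore and centromere genes 7 of 30 (23.3%) rose and none fell, a share of rises near that of all genes, with Cenpw at 0.67 and Zwilch at 0.66. The subunits and regulators of the anaphase-promoting complex, which CDC20 activates, had 3 of 17 (17.6%) that rose, also near that share: Ube2s, the enzyme that extends its ubiquitin chains (0.55, SE 0.11, adjusted p = 0.00597), its scaffold subunit Anapc1 (0.50, SE 0.10, adjusted p = 0.00571) and Cdc16 (0.43, SE 0.15, adjusted p = 0.0443).

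Of 15 entry kinases, phosphatases and MuvB genes 3 rose and 2 fell in C-MYC (33.3% called, against 43.1% of all genes). Cdc25a, the CDC25 phosphatase that also acts at the start of S phase, rose from 82.1 ± 5.97 to 155 ± 4.39 CPM (mean ± SD, n = 2), a log2 fold change of 0.92 (edgeR, SE 0.11, adjusted p = 0.000683). It was the largest rise in these 5 lists, and Cdc25b and Cdc25c did not pass the test. The CDK-binding proteins Cks2 (0.50) and Cks1b (0.45) rose too, whereas Lin37, a MuvB subunit (-0.64), and Ensa, an inhibitor of the phosphatase that opposes CDK1 (-0.38), fell. Of 18 condensin and cohesin genes 1 fell, Wapal, the cohesin release factor (-0.64), and of 21 genes of the spindle, centrosome and cytokinesis 1 fell, Ckap2l (-0.56), and none rose.

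In the 30 genes of DNA replication and S phase, listed for contrast, 22 rose and none fell in C-MYC against EV (73.3%, against 18.6% of all genes called higher), with all 30 log2 fold changes above 0 and a median of 0.42. Ung, the uracil glycosylase, was at 0.95 and Orc1, of the origin recognition complex, at 0.86. In BCR-ABL1 against EV 3 rose (Orc1, Tyms and Mcm4) and none fell (10%, against 5.08% of all genes called higher), with a median of 0.27. The difference between these lists and the members was not tested.

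**Figure D5:**
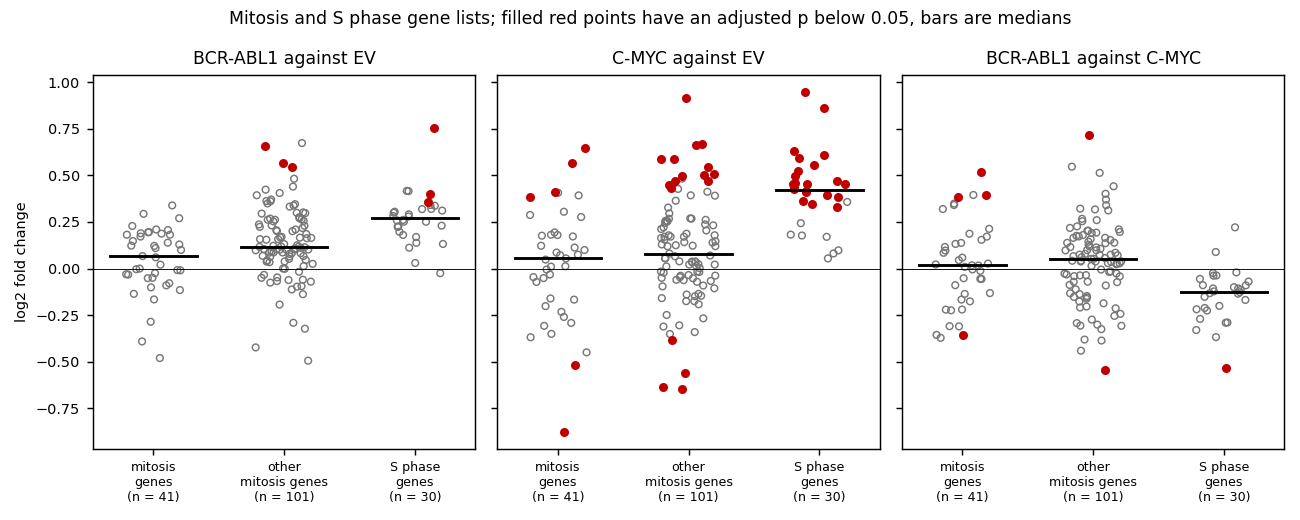
Log2 fold changes of the 41 mitosis genes, 101 other mitosis genes and 30 S phase genes in the 3 comparisons, 1 point per gene, spread sideways at random; filled red points have an adjusted p below 0.05 and bars are medians. In C-MYC against EV the medians are 0.05, 0.08 and 0.42, with 6, 17 and 22 genes called (14.6, 16.8 and 73.3%, against 43.1% of all genes).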

How the data were processed

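Poly(A) RNA-seq reads were aligned by the authors with STAR 2.5.0 to GRCm38/mm10 with UCSC known genes. The deposited counts are whole numbers per gene symbol, and the counting program, strand setting and handling of reads with several matches are not given in the sources used here. The deposited FPKM values were made by the authors with StringTie 1.3.0. The data hold no spike-in, so values are relative within a library. The ChIP-seq samples of the series were not used here.

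The counts of the 6 libraries were fitted with edgeR 4.0.16 (R 4.3.3; filterByExpr, TMM, glmQLFit and glmQLFTest, no covariate), which gave a common biological coefficient of variation of 0.151. P-values were two-sided and adjusted by Benjamini-Hochberg over all 12786 genes tested. Libraries held 20687092 to 24095955 counts, and the largest relative counting error falls on Pttg1, with as few as 127 counts in a library. No pair of replicates agreed within sampling noise (chi-square per degree of freedom of 10.1 to 45.2). The scripts were tested on simulated data. Alternatives were other scalings, no filter on low counts, DESeq2 1.42.0, only the 4 libraries compared, the replicate number as a block, limma 3.58.1 on log2(FPKM + 1) or log2(FPKM + 0.1), and leaving out each library. Same-numbered libraries deviated together from their group means over 12786 genes (correlations of 0.364, 0.305 and 0.314 for the 3 pairs of groups), so the numbers were taken to pair the libraries, and blocked values stand beside the results they change.

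Near-identical copies were sought by aligning each member's transcript (GENCODE M21) to the genome with minimap2 (at least 300 bases and 95% identity). Promoter windows came from RefSeq, for 33 members. The members and the gene lists were chosen with earlier results of these data known. The text names all members; of the other mitosis and S phase lists, it names the 2 genes with the largest rise and the 2 with the largest fall among those called in C-MYC against EV, and others where it says so or where a count is small.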

Additional observations from a re-analysis of the deposited data

How the results depend on the processing

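Alternatives were followed gene by gene for the 41 members only, and no member called in any comparison changed direction under them. For C-MYC against EV, 4 members higher became 8 with DESeq2 size factors, with DESeq2 and with the replicate block, and 2 with library size only and with log2(FPKM + 0.1). The 2 members lower became 7 with library size only, 6 with log2(FPKM + 1) and log2(FPKM + 0.1), 4 with log2(FPKM + 1) and no filter and 5 with the replicate block. The shares of all genes called higher and lower were not counted under these settings, so these member counts have no matching share by direction. All genes called were 5515 (43.1%) in the main fit, 5555 with DESeq2 size factors, 5469 with DESeq2 and 5577 with library size only. The FPKM fits called 5072 genes with log2(FPKM + 1), 5205 with log2(FPKM + 0.1) and 4602 with log2(FPKM + 1) and no filter. Library size only moved the median of all genes in this comparison from -0.08 to -0.19 and that of the members from 0.05 to -0.07, and the FPKM fits put the members' median at -0.05, so the sign of that median is not settled, whereas Ccnb1 and Cdc20 stayed called. For BCR-ABL1 against EV, members higher became 2 with DESeq2 and with the replicate block. All genes called were 2180 in the main fit, 2484 with DESeq2 and 1425 with log2(FPKM + 1) and no filter. For BCR-ABL1 against C-MYC, 1 member lower became 0 with library size only and in the 3 FPKM fits, 3 with DESeq2 and with the replicate block and 5 with only the 4 libraries compared. That last fit gave 5 members higher and 4538 genes called, and log2(FPKM + 1) with no filter gave 1412 genes called. All genes called were 2991 in the main fit, 2989 with library size only, 3334 with DESeq2, 2286 with log2(FPKM + 1) and 2560 with log2(FPKM + 0.1). Leaving out 1 library at a time gave, for BCR-ABL1 against EV, 665 to 2729 genes, 0 to 2 members higher and 0 to 3 lower; for C-MYC against EV, 3329 to 6077 genes, 2 to 12 members higher and 1 to 7 lower; and for BCR-ABL1 against C-MYC, 618 to 4519 genes, 0 to 5 members higher and 0 to 5 lower. The replicate block gave 3224, 6631 and 4278 genes called in the 3 comparisons, within 1.5 times of the counts without it, and it ended no call of a member. With 2 libraries a condition, a group left with 1 library was assumed to vary like the others. The cause of these shifts was not tested. Counting error weighs most on Pttg1, the member with the fewest counts.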
